A study of Macaca mulatta with 24 samples.

Results

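NR3C1, NR3C2, FKBP5, HSD11B1, CRH, CRHR1, CRHBP, TSC22D3 and SGK1 encode the receptors, the hormone-activating enzyme, the target genes and the neuropeptide system of glucocorticoid and corticotropin releasing factor (CRF) stress signalling. They were taken by exact symbol from a table of 17208 genes, and all 9 were present. The table holds RNA-Seq of the nucleus accumbens core (NAcc), a ventral striatal region of reward and motivation, from 24 unrelated adult male rhesus macaques. There were 8 controls, 8 low or binge drinkers (LD*) and 8 heavy drinkers (HD*), of which 4 were labelled HD and 4 very heavy (VHD). Drinkers had learned to take ethanol by schedule-induced polydipsia and then chose between dilute ethanol and water for most of each day over a year. Controls were kept in the same room and under the same operant schedule with water at both spouts, and received maltose dextrin to balance calories. No abstinence was imposed before tissue was taken. The categories were not assigned but came from each drinker's own behaviour, so that mean daily intake was 0.47 to 2.07 g/kg in LD*, 2.74 to 3.09 g/kg in HD and 3.09 to 3.78 g/kg in VHD animals. The animals came from cohort 4 (2 LD*), cohort 5 (3 controls and 4 HD*), cohort 7a (2 controls, 3 LD* and 4 HD*) and cohort 7b (3 controls and 3 LD*). Each library came from whole tissue of 1 animal, so a lower value can be fewer cells of a type or less RNA per cell, which cannot be told apart.

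CRF released from the hypothalamus starts the hormonal stress response that ends in cortisol, and CRF made elsewhere in the brain acts locally as a transmitter. Cortisol crosses into brain cells and binds the mineralocorticoid receptor and the glucocorticoid receptor, ligand-controlled transcription factors held ready by heat shock protein chaperones. Occupied receptors switch target genes on and off, and some targets feed back on the receptor itself. In the extended amygdala and accumbens, both arms of this system have long been studied in relation to ethanol drinking and withdrawal.

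All 9 genes were measurable, and their levels spanned a wide range. Values were read as TPM, the share of a gene among all transcripts of a library, which is scaled for gene length. Comparisons between genes rest on that reading, since the table is named for normalised counts. Averaged over the 24 animals, SGK1 (68.2 TPM) and TSC22D3 (60.9 TPM) were the highest, followed by NR3C1 (23.2 TPM), NR3C2 (13.8 TPM), FKBP5 (10.7 TPM), CRH (8.45 TPM), CRHBP (7.63 TPM), CRHR1 (2.89 TPM) and HSD11B1 (1.21 TPM). TSC22D3 exceeded NR3C1, and NR3C1 exceeded NR3C2, in 24 of 24 animals. SGK1 exceeded TSC22D3 in 14 animals, FKBP5 exceeded CRH in 15 and CRH exceeded CRHBP in 15, so the order of these neighbours differed from animal to animal. SGK1 lay at percentile 83.7 of all genes by mean level and HSD11B1 at percentile 22.1. The CRF genes varied most between animals: the SD of log2(TPM + 1) lay at percentile 96.2 of the 13637 tested genes for CRH and CRHBP and at 94.3 for CRHR1, against 48.7 for NR3C1.

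The tissue and library checks came out as follows. All 8 striatal projection neuron markers and all 6 markers of astrocytes and of oligodendrocytes were detected at a mean of at least 1 TPM. In 1 control of cohort 7b (Control 6), the projection neuron markers summed to 730 TPM, against at least 2530 TPM in every other animal, and the oligodendrocyte markers to 9138 TPM, the highest sum. In 1 VHD animal of cohort 7a (HD* 8), 1511 genes were at 0, against 895 to 1238 in the others, and the trimmed mean of M-values (TMM) factor, which states how high the typical gene of a library lies, was 0.694. Control 6 had the highest TSC22D3 and HSD11B1 of the 24 animals. HD* 8 had the lowest NR3C1, NR3C2, FKBP5, CRHBP, TSC22D3 and SGK1. Results that rest on these 2 animals are given with and without them.

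The first question was whether these genes differed between drinkers and controls, and no member passed the test in any group comparison. limma was run on log2(TPM + 1) over the 13637 genes that averaged 1 TPM or more, and p-values were adjusted over all of them. In HD* against controls 0 of 9 members, and 0 genes of the whole table, passed after adjustment at 0.05. The study itself, with DESeq2 on read counts, reported genes that passed at that threshold in this comparison. The 0 here therefore holds for limma on TPM only. Without adjustment 0 members fell under 0.05, where 5.68% of all genes did. In LD* against controls 0 members passed either way, where 2.84% of all genes had an unadjusted p under 0.05. In HD* against LD* 0 members passed either way, where the share of all genes was 1.08%. The ranges of the groups overlapped for every member in all 3 comparisons. Of the 13637 genes, 0 lacked overlap in each comparison with controls and 1 did in HD* against LD*.

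**Figure D1:**
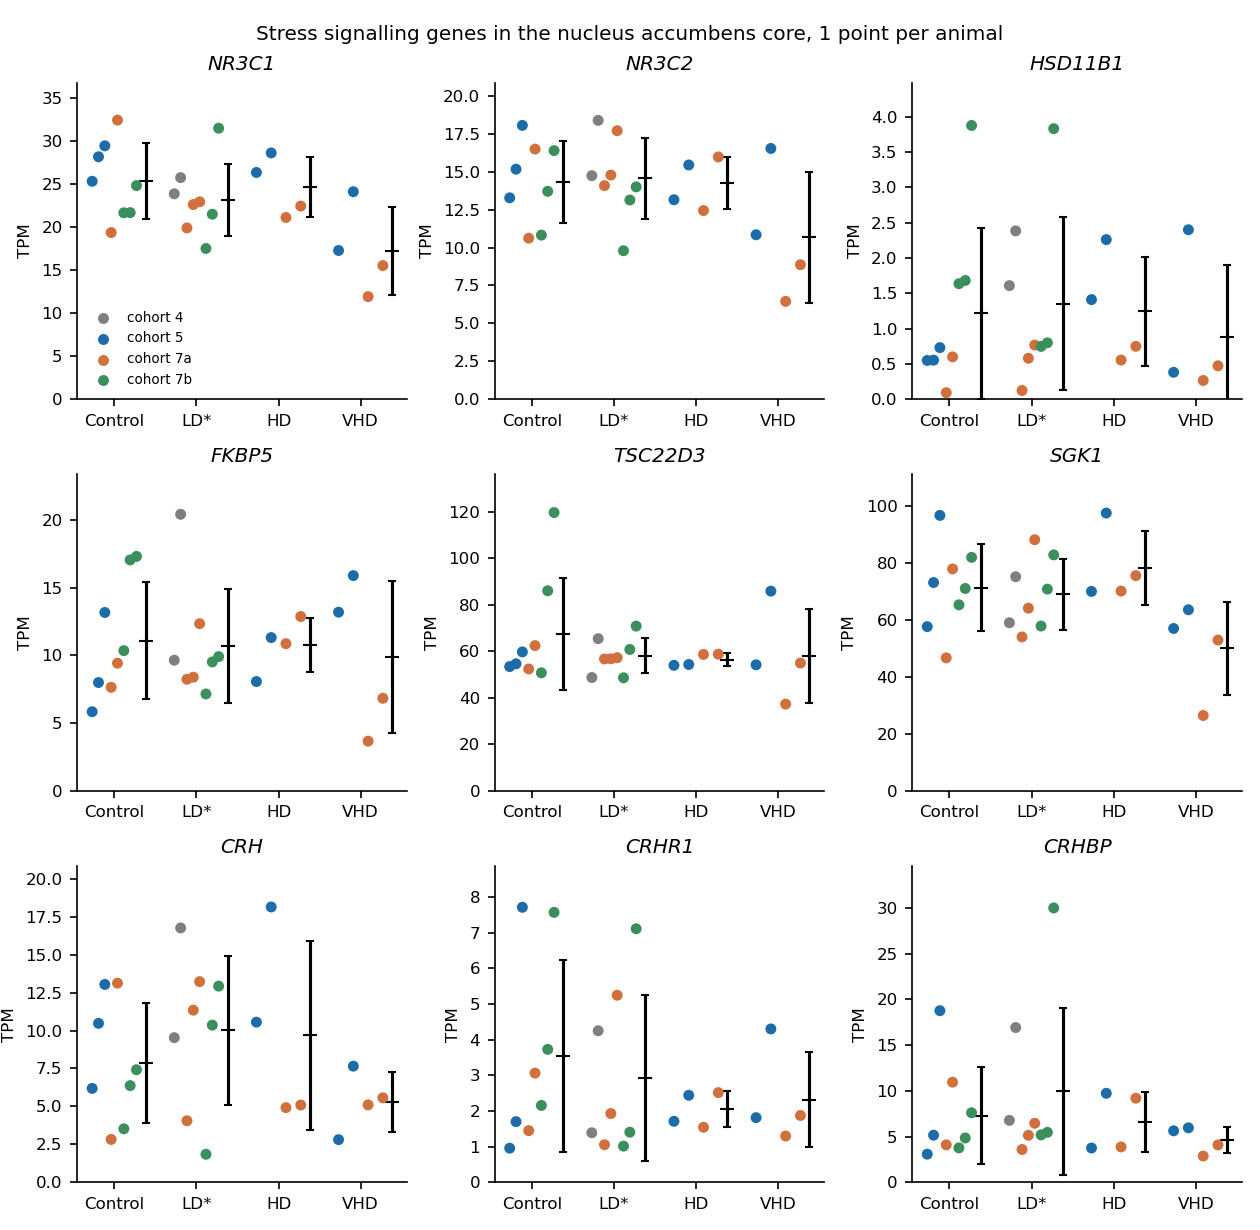
TPM of each of the 9 genes (vertical axes) in each animal by Control, LD*, HD and VHD category, with points coloured by cohort and black bars giving mean ± SD (the lower bar is cut at 0 for HSD11B1). The groups overlap for every gene, while the 4 VHD animals lie below the 4 HD animals for SGK1, where 23.3% of all genes have no overlap of VHD with HD.

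NR3C1, the glucocorticoid receptor, had the smallest unadjusted p of the members in HD* against controls. Its level ran from 19.4 through a median of 25.1 to 32.4 TPM in controls, from 17.5 through 22.8 to 31.5 TPM in LD* and from 11.9 through 21.8 to 28.6 TPM in HD* animals. The lowest HD* values lay under the whole control range, but most animals of the groups overlapped. The means were 25.4 ± 4.44 TPM (SD, n = 8) in controls, 23.2 ± 4.18 TPM in LD* and 20.9 ± 5.67 TPM in HD*. The difference of HD* from controls on the log2(TPM + 1) scale was −0.30 (SE 0.15, 95% interval −0.61 to 0.02), with a limma p of 0.0618 and an adjusted p of 0.706. It was −0.19 without HD* 8, and −0.35 within cohorts 5 and 7a alone, which hold all the HD* animals.

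NR3C2, the mineralocorticoid receptor, which binds cortisol more tightly than NR3C1 does, ran from 10.6 through 14.4 to 18.1 TPM in controls. The LD* animals covered nearly the same span, from 9.80 through 14.4 to 18.4 TPM. HD* animals ran from 6.45 through 12.8 to 16.5 TPM. The lowest values of NR3C2 were again in HD* animals, and the upper parts of all 3 ranges coincided. The HD* difference from controls was −0.22 on the log2 scale, with a limma adjusted p between the 0.706 and 0.948 that bound the 9 members.

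HSD11B1, the enzyme that regenerates active cortisol from inert cortisone inside cells, was the lowest and, relative to its level, the most variable member. It ran from 0.0905 through 0.664 to 3.88 TPM in controls, from 0.122 through 0.782 to 3.83 TPM in LD* and from 0.264 through 0.650 to 2.40 TPM in HD* animals. Medians of the 3 groups were close and every group had animals near the bottom of the scale and animals several times higher. Its coefficient of variation over the 24 animals was 88.2%, against 21.4% for NR3C1. The HD* difference from controls was −0.05 on the log2(TPM + 1) scale, a scale that compresses change at such low values, and 0.22 without Control 6 and HD* 8.

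FKBP5, TSC22D3 and SGK1 are genes that glucocorticoids induce, and they were read as targets of the receptors. FKBP5, a co-chaperone that lowers the hormone affinity of the glucocorticoid receptor, ran from 5.83 through 9.88 to 17.3 TPM in controls, from 7.14 through 9.57 to 20.4 TPM in LD* and from 3.66 through 11.1 to 15.9 TPM in HD* animals. Its highest value was in an LD* animal and its lowest in an HD* animal, and the group medians lay within the spread of every group. TSC22D3, which encodes the leucine zipper protein GILZ, ran from 50.7 through 57.2 to 120 TPM in controls, from 48.6 through 57.0 to 70.9 TPM in LD* and from 37.3 through 54.6 to 85.9 TPM in HD* animals. The 120 TPM belonged to Control 6. SGK1, a kinase that acts on ion channels and transporters, ran from 46.7 through 72.2 to 96.8 TPM in controls, from 54.1 through 67.5 to 88.3 TPM in LD* and from 26.5 through 66.9 to 97.6 TPM in HD* animals. The lowest and the highest SGK1 value of the 24 animals were both in HD*. The differences of HD* from controls were −0.11 for FKBP5, −0.20 for TSC22D3 and −0.20 for SGK1 on the log2 scale, and without Control 6 and HD* 8 they were 0.16, 0.01 and 0.00.

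CRH, the gene of the CRF peptide, ran from 2.83 through 6.90 to 13.1 TPM in controls, from 1.85 through 10.8 to 16.8 TPM in LD* and from 2.81 through 5.34 to 18.1 TPM in HD* animals. The LD* median was the highest, and the range of each group contained most animals of the others. CRHR1, the main CRF receptor of brain, ran from 0.959 through 2.61 to 7.71 TPM in controls, from 1.02 through 1.67 to 7.11 TPM in LD* and from 1.30 through 1.85 to 4.30 TPM in HD* animals. CRHR1 above the HD* maximum was seen in controls and LD* animals only, but the lower parts of the ranges were shared. CRHBP, a secreted protein that binds CRF and keeps it from its receptors, ran from 3.09 through 5.01 to 18.8 TPM in controls, from 3.60 through 5.97 to 30.0 TPM in LD* and from 2.88 through 4.87 to 9.74 TPM in HD* animals. A few control and LD* animals stood high and the remainder of the 3 groups overlapped.

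The CRF genes gave the widest intervals of the group comparisons. In HD* against LD* the log2 difference of CRHBP was −0.50 (95% interval −1.23 to 0.23) and that of CRH was −0.35, and the limma adjusted p of the 9 members lay between 0.937 and 0.963. For CRHR1 the HD* difference from controls was −0.35 (95% interval −1.02 to 0.31), and −0.50 to −0.19 with each animal left out in turn. In LD* against controls the difference was 0.29 for CRHBP and 0.26 for CRH on the log2 scale, with a limma adjusted p of 1.00 for every member. Single animals moved these values: with each animal left out in turn, CRHBP ran from 0.031 (without LD* 4) to 0.50 (without Control 2) and CRH from 0.11 (without Control 8) to 0.51 (without LD* 5) in LD* against controls. In HD* against LD*, CRHBP then ran from −0.63 (without LD* 6) to −0.24 (without LD* 4) and CRH from −0.60 (without LD* 5) to −0.21 (without HD* 4). Intervals of this width leave room for sizeable differences in either direction.

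The signs of the members were read against those of all genes, because the libraries differed in their typical level. In HD* against controls 9 of 9 members had a lower mean log2 value, with a median of −0.20, while 10608 of the 13637 tested genes were also lower and the median of all genes was −0.12. After TMM rescaling, which brought the median of all genes to 0.00, 7 members were lower and FKBP5 (0.01) and CRH (0.03) were higher, with a median over the members of −0.07. In LD* against controls 4 members were higher and 5 lower, where 7918 of all tested genes were lower. In HD* against LD* all 9 were lower, where 9990 of all tested genes were lower and their median was −0.08. After TMM rescaling 8 members were lower and TSC22D3 was at 0.04, where 7066 of all tested genes were lower.

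**Figure D2:**
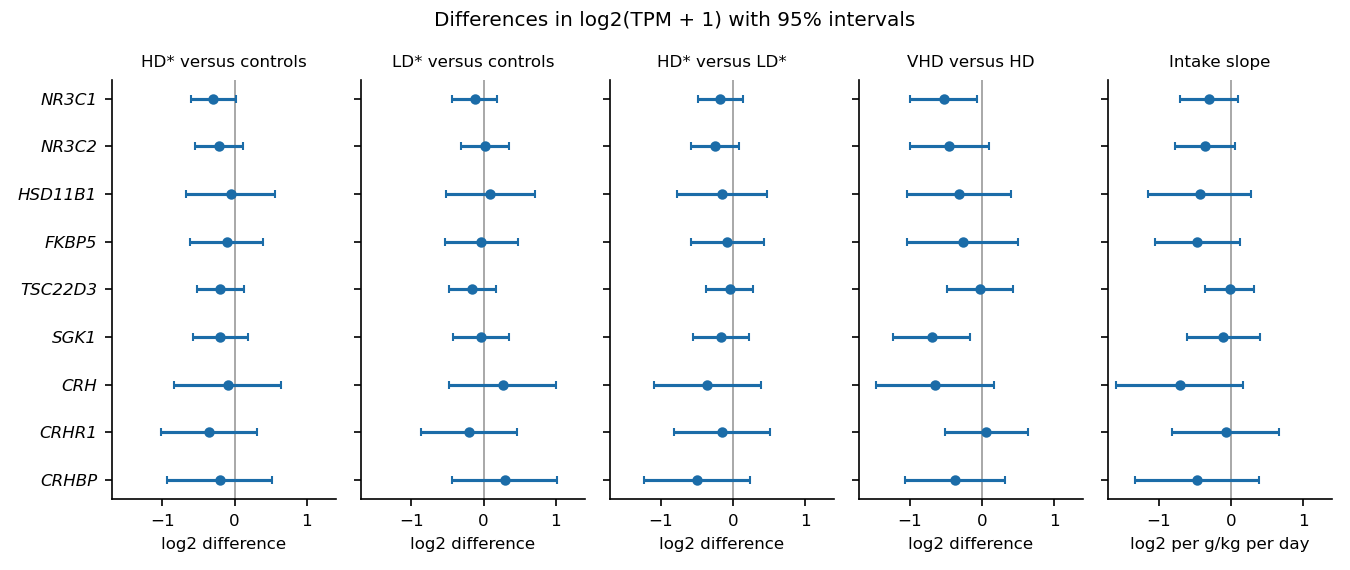
Difference in log2(TPM + 1) of each gene with its 95% limma interval for the group comparisons, VHD against HD and the slope on intake. The intervals of the 3 group comparisons and of the slope cross 0 for all 9 genes, and those of SGK1 and NR3C1 lie under 0 in VHD against HD.

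Within the HD* group, SGK1 and NR3C1 had the smallest p of the members in VHD against HD, and neither passed after adjustment. SGK1 measured 70.1, 70.2, 75.6 and 97.6 TPM in the HD and 26.5, 53.0, 57.0 and 63.6 TPM in the VHD animals. The 4 VHD values all lay under the lowest HD value, and SGK1 was the only member without overlap, where 23.3% of all genes had none. The log2 difference was −0.70 (SE 0.24, 95% interval −1.22 to −0.17), with a limma p of 0.0141 and an adjusted p of 0.0719. NR3C1 measured 21.1, 22.4, 26.4 and 28.6 TPM in the HD and 11.9, 15.5, 17.3 and 24.1 TPM in the VHD animals. The 3 lowest VHD animals were under every HD animal and the fourth lay among them. Its log2 difference was −0.53 (SE 0.21, 95% interval −0.99 to −0.06), with a limma p of 0.0299 and an adjusted p of 0.112.

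Read against the whole table, these differences did not stand out. In VHD against HD, 0 of 9 members passed after adjustment, where 14.6% of all genes passed, and 2 members had an unadjusted p under 0.05, where 32.7% of all genes did. Of the 1997 genes that passed, 441 were higher and 1556 lower in VHD. After TMM rescaling 2597 passed, 1181 higher and 1416 lower. The TMM factors of the VHD animals were 0.694, 0.832, 0.936 and 1.13, and those of the HD animals lay between 1.01 and 1.03. With TMM rescaling the difference of SGK1 was −0.50 (limma adjusted p = 0.0720) and that of NR3C1 −0.33 (adjusted p = 0.0883). The part of the library level in these differences was not tested beyond that rescaling.

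Both categories were present in cohorts 5 and 7a, so the comparison could be made within each. In cohort 5 SGK1 was 57.0 and 63.6 TPM in VHD against 70.1 and 97.6 TPM in HD, and in cohort 7a it was 26.5 and 53.0 TPM against 70.2 and 75.6 TPM. NR3C1 was 17.3 and 24.1 TPM against 26.4 and 28.6 TPM in cohort 5, and 11.9 and 15.5 TPM against 21.1 and 22.4 TPM in cohort 7a. For both genes the VHD animals lay below the HD animals in each cohort, as they did for 22.7% of all genes. FKBP5 went opposite ways, with 13.2 and 15.9 TPM in VHD against 8.06 and 11.3 TPM in HD in cohort 5, but 3.66 and 6.83 TPM against 10.9 and 12.9 TPM in cohort 7a. With cohort as a covariate, chosen as an alternative, SGK1 (limma adjusted p = 0.0409) and NR3C1 (adjusted p = 0.0494) passed, beside 20.2% of all genes.

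The result for both genes depended on single VHD animals. Without HD* 8 the log2 difference of SGK1 was −0.42 (limma adjusted p = 0.0824) and that of NR3C1 −0.37 (adjusted p = 0.194). Without HD* 4, the VHD animal with a TMM factor of 1.13, SGK1 was at −0.83 (adjusted p = 0.0209), NR3C1 at −0.69 (adjusted p = 0.0138) and NR3C2 at −0.67 (adjusted p = 0.0234) by limma. In that fit 4651 of the 13637 tested genes passed, so passing was common in the whole table. With all 8 animals, CRH differed by −0.65 (limma adjusted p = 0.250) and NR3C2 by −0.45 (adjusted p = 0.231). The other members differed by −0.37 for CRHBP, −0.32 for HSD11B1, −0.27 for FKBP5, −0.02 for TSC22D3 and 0.06 for CRHR1.

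**Figure D3:**
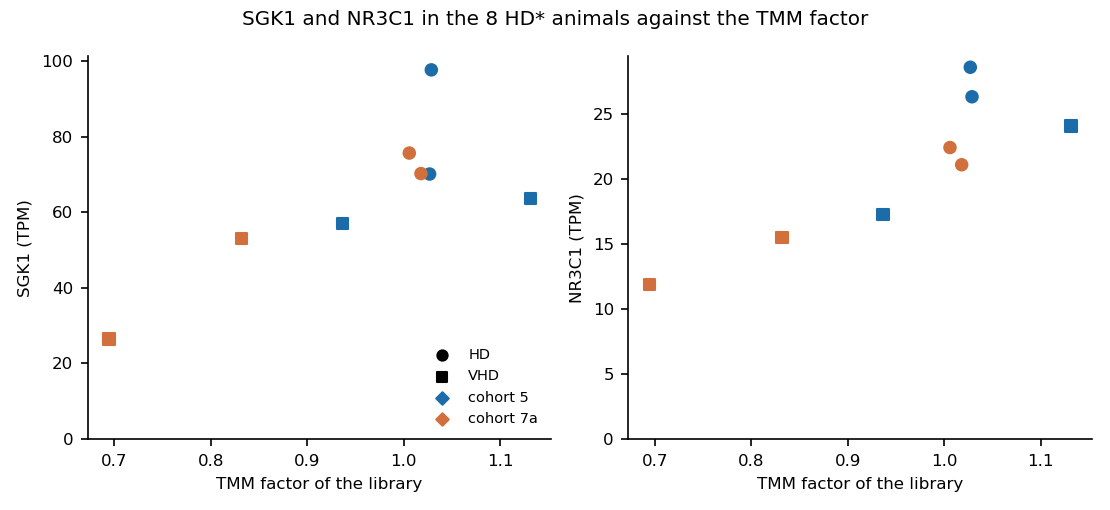
TPM of SGK1 and of NR3C1 (vertical axes) against the TMM factor of the library (horizontal axes, no unit) for the 8 HD* animals, with circles for HD, squares for VHD and colours for cohort. HD libraries cluster at factors of 1.01 to 1.03, and the VHD library with the lowest factor, 0.694, has the lowest level of both genes.

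Among drinkers, each animal's intake gave a second view of the same question, and no member passed. The slope on mean daily intake was fitted in the 16 drinkers with a term for LD* or HD*, so that it describes differences between animals of the same group. All 9 slopes were negative, where 9207 of the 13637 tested genes had a negative slope and the median of all genes was −0.11. The 9 slopes ran from −0.71 log2 per g/kg for CRH (95% interval −1.59 to 0.17) to −0.02 for TSC22D3. CRHBP (−0.47), FKBP5 (−0.46), HSD11B1 (−0.43), NR3C2 (−0.36) and NR3C1 (−0.30) lay between, with SGK1 at −0.11 and CRHR1 at −0.07. None of the 9 had an unadjusted limma p under 0.05, where 8.12% of all genes did, and the adjusted p ran from 0.498 to 0.966. With each drinker left out in turn, the slope ran from −1.37 (without LD* 2) to −0.38 (without LD* 5) for CRH, from −0.70 (without HD* 1) to −0.043 (without LD* 2) for FKBP5 and from −0.42 (without LD* 2) to −0.016 (without HD* 8) for SGK1. After TMM rescaling 6 slopes were negative, and those of SGK1 (0.02), CRHR1 (0.01) and TSC22D3 (0.11) were positive. Of the 13637 tested genes, 6859 had a negative slope after that rescaling.

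Cohort went with HSD11B1 more than with any other member. HSD11B1 averaged 2.00 ± 0.548 TPM (SD, n = 2) in cohort 4, 1.18 ± 0.851 TPM (n = 7) in cohort 5, 0.466 ± 0.252 TPM (n = 9) in cohort 7a and 2.10 ± 1.42 TPM (n = 6) in cohort 7b. The 9 animals of cohort 7a lay between 0.0905 and 0.766 TPM and the 6 animals of cohort 7b between 0.747 and 3.88 TPM, so that the ranges barely touched. The limma F statistic for cohort, with group in the model, was 7.25 with a p of 0.00149, the 17th highest of 13637 genes, but its adjusted p was 0.540, and 0 genes passed. HSD11B1 was 1 of 9 members with an unadjusted p under 0.05, where 8.36% of all genes had one. F lay between 5.57 and 8.97 when each animal was left out in turn, and was 5.73 without Control 6 and HD* 8 and 7.66 after TMM rescaling.

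Within groups the cohorts separated in part. Controls measured 1.64, 1.68 and 3.88 TPM in cohort 7b, 0.0905 and 0.598 TPM in 7a and 0.548, 0.552 and 0.729 TPM in 5, so 7b lay above both and 5 and 7a overlapped. LD* animals measured 0.747, 0.798 and 3.83 TPM in 7b and 0.122, 0.579 and 0.766 TPM in 7a, which overlapped, with LD* 4 alone far above. HD* animals measured 0.380, 1.41, 2.26 and 2.40 TPM in cohort 5 and 0.264 to 0.747 TPM in 7a, again with overlap. Cohort 7b exceeded 7a by 1.12 on the log2 scale (SE 0.26), with a limma p of 0.000297 and an adjusted p of 0.627. Cohort 7b held no HD* animals and cohort 5 no LD* animals, so cohort and group were partly tied. A difference in the HD* effect between cohorts 5 and 7a was tested for each member and gave a limma adjusted p of 1.00 for all 9.

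**Figure D4:**
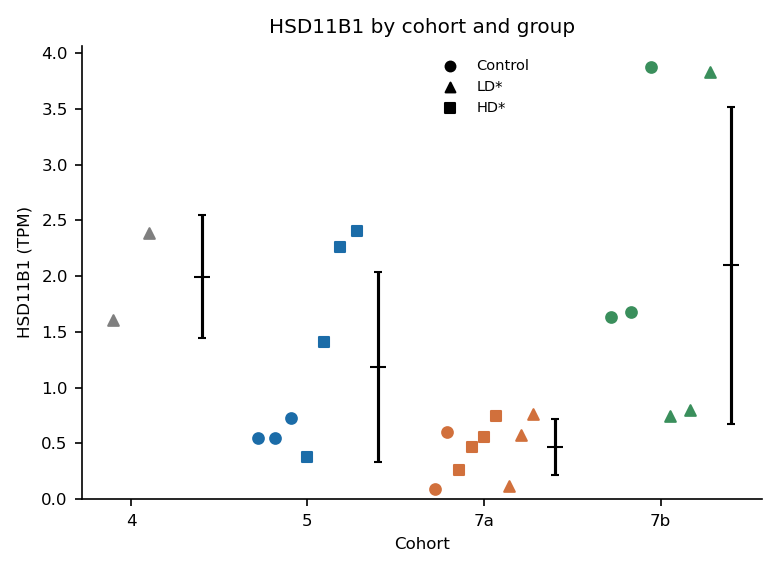
HSD11B1 in TPM (vertical axis) in each animal by cohort, with the marker shape giving the group and black bars the mean ± SD of the cohort. The 9 animals of cohort 7a lie at or under 0.766 TPM, while cohort 7b reaches 3.88 TPM.

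Pairs of members were correlated about as often as members were with any gene. Of 36 pairs, 11 had a Pearson correlation of log2(TPM + 1) over the 24 animals with a permutation p under 0.05 after Benjamini-Hochberg adjustment, and 1 had such a Spearman correlation. These 11 were the pairs with r above 0.5, 30.6% of the 36, where 25.3% of the pairs of a member with any other tested gene had r above 0.5. NR3C1 and NR3C2, the receptor pair, had the closest relation, with r = 0.82 and rho = 0.72 (adjusted permutation p of r = 0.00036), r = 0.64 without the 2 animals farthest from the median and r of 0.71, 0.90 and 0.68 in cohorts 5, 7a and 7b. NR3C1 nonetheless correlated more closely with 1004 other genes, 7.36% of those tested. After TMM rescaling the r of this pair was 0.56, and 0 of 36 pairs passed.

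The targets were less closely tied to the receptors than the receptors were to each other. With NR3C1, FKBP5 and TSC22D3 each had r = 0.35 and did not pass (adjusted permutation p of r = 0.192 and 0.195). With NR3C2, FKBP5 and SGK1 each had r = 0.54 and passed (adjusted permutation p of r = 0.0288 and 0.0327). TSC22D3 had r = 0.28 with NR3C2 and did not pass. Of all genes, 45.5% had r above 0.5 with NR3C2. Without the 2 farthest animals the r with NR3C2 was 0.22 for FKBP5 and 0.07 for SGK1. SGK1 and NR3C1 had r = 0.57 and rho = 0.34 (adjusted permutation p of r = 0.0288), but r = 0.20 without the 2 farthest animals, and 37.5% of all genes were closer to NR3C1 than SGK1 was. Within cohorts their r was 0.34 in cohort 5, 0.85 in cohort 7a and −0.91 in cohort 7b, so the pooled relation did not hold in every cohort and turned negative in 7b (n = 6). FKBP5 and TSC22D3 had r = 0.63 and rho = 0.31 (adjusted permutation p of r = 0.0113), with r of 0.39, 0.79 and 0.76 in cohorts 5, 7a and 7b and 0.43 without Control 6 and HD* 8. NR3C1 and CRH had r = 0.55 and rho = 0.58 (adjusted permutation p of r = 0.0288), with r = 0.61 without the 2 farthest animals and 0.45, 0.55 and 0.64 within the cohorts, and 40.2% of all genes were closer to NR3C1 than CRH was. Without Control 6 and HD* 8, 4 pairs passed: NR3C1 with NR3C2, NR3C1 with CRH, CRHBP with CRHR1, and SGK1 with CRHR1, whose r was −0.60 there and −0.18 over all animals.

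**Figure D5:**
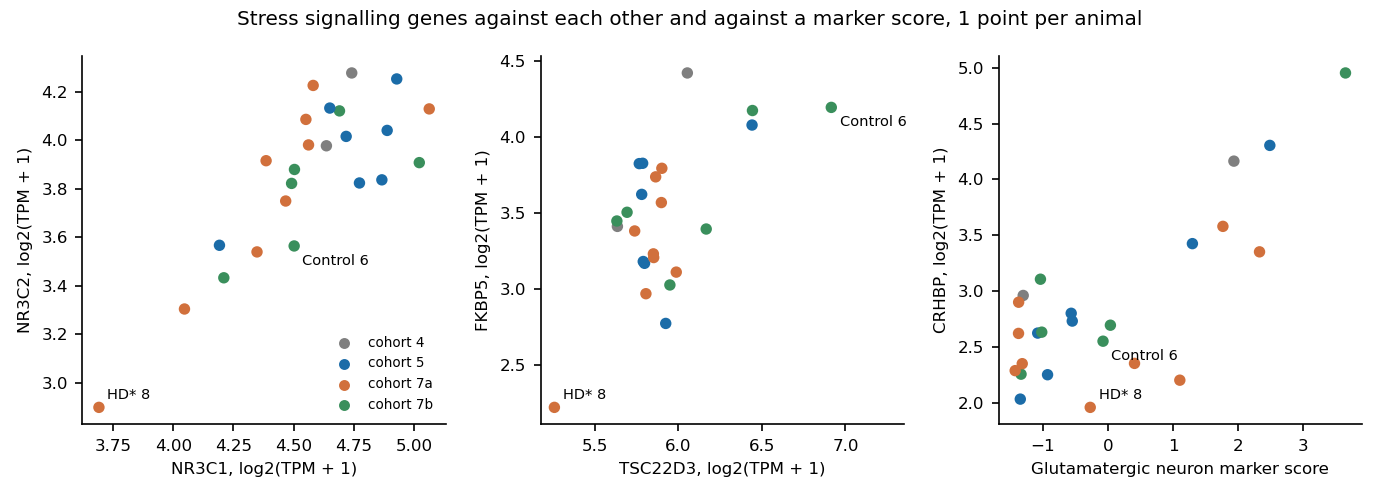
Scatter of log2(TPM + 1) of NR3C2 against NR3C1, of FKBP5 against TSC22D3, and of CRHBP against the glutamatergic neuron marker score (a mean of centred log2 values), with 1 point for each of 24 animals coloured by cohort. NR3C1 and NR3C2 rise together over the whole range, HD* 8 and Control 6 mark the ends of the TSC22D3 axis, and the highest CRHBP is at the highest marker score.

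Markers of the cell types in the dissection moved with several members. Of 90 relations between a member and a marker score or the TMM factor, 19 passed by r after adjustment and 14 by rho. The share of all tested genes with such relations was not computed, so these counts have no background to be read against. CRHR1 went with the astrocyte score at r = 0.79 and rho = 0.76 (adjusted permutation p of r = 0.0003), at r = 0.82 without the 2 farthest animals and at 0.81, 0.75 and 0.89 in cohorts 5, 7a and 7b. It went down as the striatal projection neuron score went up (r = −0.69, rho = −0.65), with r of −0.80, −0.38 and −0.77 in the same cohorts. CRHR1 also passed by r with the scores of choroid plexus (r = 0.61), cortical or other glutamatergic neurons (0.60) and microglia (0.54), so astrocytes were not its only relation. CRHBP went with the score of cortical or other glutamatergic neurons at r = 0.79 and rho = 0.54 (adjusted permutation p of r = 0.00045), at r = 0.61 without the 2 farthest animals and at 0.97, 0.53 and 0.92 in the 3 cohorts. The 5 glutamatergic markers summed to 1.83 to 394 TPM in controls, 1.63 to 829 TPM in LD* and 1.39 to 228 TPM in HD* animals, and SLC17A6, TBR1 and NEUROD2 were each at 0 in at least 1 animal. The animal with the highest sum, LD* 4, also had the highest CRHBP, at 30.0 TPM. TSC22D3 passed with 6 marker scores: besides interneurons these were projection neurons (r = −0.70), oligodendrocytes (0.65), choroid plexus (0.64), astrocytes (0.58) and microglia (0.51). Without Control 6 and HD* 8 these r were −0.55, 0.46, 0.49, 0.55 and 0.56. In cohorts 5, 7a and 7b the r was −0.79, 0.44 and −0.93 for projection neurons. It was 0.82, −0.07 and 0.90 for astrocytes and 0.87, −0.001 and 0.72 for microglia. Oligodendrocytes and choroid plexus had a positive r in each of these cohorts. TSC22D3 went with the interneuron score at r = 0.76 and rho = 0.55, at 0.80, 0.77 and 0.92 within the cohorts and at 0.59 without Control 6 and HD* 8. FKBP5 did so at r = 0.66 and rho = 0.59, at 0.79, 0.67 and 0.88 within the cohorts and at 0.44 without them. The interneuron markers disagreed in Control 6, which had the highest interneuron score. PVALB, CHAT and TH were the highest there, while NPY was the lowest (195 TPM, against at least 357 TPM in the others). SST (699 TPM) and NOS1 (8.06 TPM) lay under their means in that animal. NR3C1 went with the endothelial and mural score at r = 0.62 and rho = 0.67, and at 0.63 without Control 6 and HD* 8. NR3C1 and NR3C2 each had r = 0.88 with the TMM factor of the library, and rho of 0.82 and 0.73. Within cohorts 5, 7a and 7b that r was 0.67, 0.93 and 0.82 for NR3C1 and 0.77, 0.96 and 0.76 for NR3C2. Whether the makeup of the dissections or the library level has a part in the values of these genes was not tested.

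The genes most like each member across the 24 animals, by Pearson r of log2(TPM + 1), are given as a description. For NR3C1 they were MORC3 (r = 0.94), USP32 and TAB3, and for NR3C2 they were NCOA2 (r = 0.96), RPAP3 and GRAMD1B. NCOA2 is itself a coactivator of nuclear receptors. CRHBP was near TMEM155 (r = 0.90) and MPPED1. For CRHR1 the nearest were CA10 (r = 0.93), TMEM151B and CAMK2G, and for CRH they were TOX3 (r = 0.80), CNTNAP4 and TENM2. The targets were nearest to MAP7 (r = 0.91) for SGK1, TOX2 (r = 0.93) for TSC22D3 and EEF2K (r = 0.86) for FKBP5. HSD11B1 had the weakest nearest gene, FTSJ3 at r = 0.77.

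Other genes of the pathway, in 4 lists, were set beside the members. They were 36 tested genes, and in HD* against controls none of them passed after adjustment. The 11 tested receptor chaperones and coregulators were all lower, or 6 of 11 after TMM rescaling. Of 16 other genes that glucocorticoids induce, 1 was higher and 15 were lower, or 10 higher and 6 lower after TMM rescaling. The 5 steroid supply and export genes were all lower, or 3 of 5 after TMM rescaling, and of the 4 further CRF and vasopressin system genes 3 were higher, or 4 of 4 after TMM rescaling. Only H6PD and ABCB1 of the 36 genes had an unadjusted p under 0.05, where 5.68% of all genes did. After TMM rescaling 0 of the 36 genes had one, where 502 of the 13637 tested genes did. H6PD, which supplies the cofactor that HSD11B1 uses, was at −0.26 on the log2 scale, with a limma p of 0.0297 and an adjusted p of 0.706. ABCB1, the efflux pump that keeps glucocorticoids out of brain, was at −0.30, with a limma p of 0.0479 and an adjusted p of 0.706. In LD* against controls ABCB1 was at −0.39, with a limma p of 0.011 and an adjusted p of 1.00.

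None of the most abundant genes of these lists passed between HD* and controls. The chaperones HSPA8 (mean 1838 TPM over 24 animals) and HSP90AB1 (1544 TPM), which fold and hold the receptors, were at −0.10 and −0.13 on the log2 scale, while the coactivators NCOA3 (−0.28) and MED1 (−0.25) had the smallest p of the list, with a limma adjusted p of 0.706. Among the induced genes GLUL, the glutamine synthetase of astrocytes (1092 TPM), was at 0.00 and the metallothionein MT2A (394 TPM) at 0.07. ZBTB16 ran from 8.22 through 9.53 to 16.6 TPM in controls and from 5.54 through 7.43 to 14.7 TPM in HD* animals, with overlapping ranges. Its log2 difference was −0.42, and that of KLF15 −0.26, both transcription factors, with a limma adjusted p of 0.706 for each. SRD5A1, a steroid reductase, was at −0.12 and TSPO at −0.11, each on the log2 scale. UCN, the gene of the CRF-like peptide urocortin, averaged 10.4 TPM and was at 0.13, PCSK1 (22.7 TPM) at 0.02 (SE 0.50), AVP, the vasopressin gene (19.0 TPM), at 0.01 (SE 0.32) and POMC at −0.09.

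VHD differed from HD in several of these genes. KLF9, a transcription factor that glucocorticoids induce, fell from 46.5 to 56.4 TPM in HD to 18.2 to 31.7 TPM in VHD animals, a log2 difference of −1.11 (SE 0.19, limma adjusted p = 0.00641). NCOA1, a nuclear receptor coactivator, was at 83.9 to 98.2 TPM in HD and 39.2 to 63.6 TPM in VHD animals (limma adjusted p = 0.0108). Neither gene's ranges overlapped, as in 23.3% of all genes, and both passed after TMM rescaling and with each animal left out in turn. The chaperone genes STIP1 (−0.74, limma adjusted p = 0.0186) and FKBP4 (−0.59, adjusted p = 0.0452) also fell, and FKBP4 had an adjusted p of 0.051 after TMM rescaling. PCSK1, a convertase that processes peptide precursors, was lower by −0.93 (limma adjusted p = 0.0309, or 0.091 after TMM rescaling). TSPO, a mitochondrial protein used as a marker of reactive glia, rose by 0.69 (limma adjusted p = 0.0295), and POMC, the precursor of ACTH, rose by 1.26 (adjusted p = 0.0326) from 1.29 to 5.57 TPM in HD to 4.00 to 10.9 TPM in VHD animals. With 1 of the 8 animals left out, STIP1 passed in 5 of 8 fits (not without HD* 3, 5 or 6), PCSK1 in 4 (not without HD* 2, 3, 5 or 6), TSPO in 3 (not without HD* 2, 3, 5, 6 or 7), POMC in 3 (not without HD* 1, 3, 5, 6 or 7) and FKBP4 in 1 (that without HD* 4). The highest limma adjusted p among these fits was 0.144, for FKBP4. In all, 7 of 36 tested pathway genes passed, beside the 14.6% of all genes. The directions were mixed: 5 of the 16 other induced genes were higher in VHD and 11 lower, or 9 and 7 after TMM rescaling. Of these 16, only KLF9 passed without rescaling, and 2 passed after it, 1 higher and 1 lower.

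The chaperone list followed the receptors across animals. The median r of its 11 genes with NR3C1 was 0.76 and with NR3C2 0.75, and 10 of 11 had r above 0.5 with each receptor, where 44.4% and 45.5% of all genes did. With FKBP5, 8 of the 16 other induced genes had r above 0.5, where 21.3% of all genes did, but 1 of 16 did without Control 6 and HD* 8, where 4.00% of all genes did. The same list had 5 of 16 genes above 0.5 with TSC22D3, where 25.7% of all genes were, 2 of 16 with SGK1, where 32.5% were, and 4 of 16 with NR3C1, where 44.4% were. CRHR2, UCN3, AVPR1A, AVPR1B, HSD11B2, CYP11A1 and CYP11B1 had means under 1 TPM and were not tested. Among them were the second CRF receptor (CRHR2, 0.458 TPM) and the enzyme that inactivates cortisol (HSD11B2, 0.445 TPM), lower on average than CRHR1 and HSD11B1 on the TPM scale.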

How the data were processed

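RNA-Seq of 24 NAcc samples was analysed from 1 deposited table. Per the labels and the study's methods, the authors mapped reads with STAR 2.5.2b (unique hits, at most 2 mismatches) to the MacaM rhesus assembly, counted genes with HTSeq 0.6.1p1 and used FastQC and DESeq2. The deposited values sum to 1000000 per animal, within rounding, and, within an animal, low values share no common step. They were therefore treated as TPM, although the deposited table is named for normalised counts. How counts became TPM is not given in the sources used here, and the sources differ on strand and read pairing. The study gives its sequencing depth only as an average over samples. Depth per animal is not given in the sources used here, so no counting error could be given. Groups came from the labels. Members, gene lists, markers and tests were chosen with earlier results of these data known.

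The 13637 of 17208 genes that averaged 1 TPM or more were tested on log2(TPM + 1) with limma 3.58.1 in R 4.3.3 (moderated, with trend), adjusted by Benjamini-Hochberg over all of them. Differences on this scale understate change in low genes. Correlations used 100000 permutations, two-sided, in Python 3.11.15 with numpy 2.4.6, pandas 2.3.3 and scipy 1.17.1. Marker scores were means of centred log2 values. TMM factors were computed from TPM (30% of M and 5% of A values trimmed). Named genes were all 9 members, list genes that passed, the 2 per list with the smallest p for HD* against controls and the 2 with the highest mean, and the 3 genes with the highest r per member. 1 of the latter is not reported here. The tests were run on simulated data first. Alternatives were a pseudocount of 0.1 or 8, no filter or at least 10 TPM, TMM rescaling, cohort as a covariate, each animal left out, and, chosen after seeing the data, both outlying animals left out. HSP90AA1, UCN2, MC2R, PECAM1, HBA1 and HBA2 were not matched by symbol. Promoter and protein sequences were not analysed here.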

Additional observations from a re-analysis of the deposited data

Results flagged for a closer look

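In 5 of 45 tests of a group of 4 to 8 animals, the highest animal stood apart from the rest by Dixon's test, which chance does in about 1 in 20 groups. FKBP5 was 20.4 TPM in LD* 2, where the other LD* animals lay between 7.14 and 12.3 TPM. HSD11B1 was 3.88 TPM in Control 6, where the other controls lay between 0.0905 and 1.68 TPM. This control is the animal with the low projection neuron markers.

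The remaining cases were in HD* 4, a VHD animal of cohort 5 with a TMM factor of 1.13. Its HSD11B1 was 2.40 TPM, where the other VHD animals lay between 0.264 and 0.472 TPM. Its CRHR1 was 4.30 TPM, where the other HD* animals lay between 1.30 and 2.52 TPM. Its TSC22D3 was 85.9 TPM, where the other HD* animals lay between 37.3 and 58.8 TPM.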

How the results depend on the processing

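No paired analysis was possible because the replicate numbers only name the animals. Over settings other than leaving out an animal, 391 of the values for single genes and pairs kept their direction and their side of the threshold, 28 reversed, 25 lost a call and 2 gained one. With an animal left out these numbers were 1067, 42, 24 and 3. The cause was not tested. With TMM rescaling, HD* against controls gave 0.0056 for FKBP5 and 0.031 for CRH, LD* against controls 0.0081 for FKBP5 and 0.0090 for SGK1, HD* against LD* 0.044 for TSC22D3, VHD against HD 0.18 for TSC22D3, and the intake slope 0.013 for CRHR1, 0.11 for TSC22D3 and 0.018 for SGK1. With cohort as a covariate, HD* against controls gave 0.021 for FKBP5 and 0.31 for HSD11B1, LD* against controls −0.037 for HSD11B1 and 0.078 for SGK1, and HD* against LD* 0.18 for FKBP5, 0.35 for HSD11B1 and 0.082 for TSC22D3. In cohorts 5 and 7a alone, HD* against controls gave 0.19 for FKBP5, 0.43 for HSD11B1 and 0.0031 for TSC22D3. Without Control 6 and HD* 8, HD* against controls gave 0.16 for FKBP5, 0.22 for HSD11B1, 0.0075 for TSC22D3 and 0.0016 for SGK1, LD* against controls −0.025 for NR3C2 and 0.065 for FKBP5, and HD* against LD* 0.093 for FKBP5, 0.039 for TSC22D3 and 0.0055 for SGK1. Of the 11 correlated pairs, TMM rescaling left 0 and leaving out both animals 4.

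Leaving out each animal in turn, VHD against HD called 476 to 4651 genes (1997 with all), with 476 without HD* 6, 607 without HD* 5, 681 without HD* 3, 723 without HD* 7, 1094 without HD* 2 and 4651 without HD* 4. The intake slope called 0 to 1. The group comparisons and cohort called 0 genes by limma, and 775 (HD* against controls), 387 (LD* against controls), 147 (HD* against LD*), 1107 (intake) and 1140 (cohort) at an unadjusted p under 0.05. Ranges that crossed 0 in HD* against controls were −0.28 to 0.049 for CRH, −0.32 to 0.0014 for CRHBP, −0.22 to 0.061 for FKBP5 and −0.18 to 0.13 for HSD11B1. In LD* against controls they were −0.17 to 0.065 for FKBP5, −0.076 to 0.28 for HSD11B1, −0.029 to 0.10 for NR3C2 and −0.12 to 0.030 for SGK1. In HD* against LD* they were −0.26 to 0.031 for CRHR1, −0.17 to 0.093 for FKBP5, −0.28 to 0.023 for HSD11B1, −0.26 to 0.0055 for SGK1 and −0.13 to 0.039 for TSC22D3. In VHD against HD they were −0.19 to 0.21 for CRHR1, −0.54 to 0.083 for FKBP5 and −0.23 to 0.17 for TSC22D3. For the intake slope they were −0.67 to 0.033 for CRHBP, −0.22 to 0.47 for CRHR1 and −0.056 to 0.14 for TSC22D3. Depth per animal is not given, so the counting error of low genes such as HSD11B1 could not be set.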
